A study of Rattus norvegicus with 6 samples.

Results

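The genes described here encode the working parts of the lysosome: soluble acid hydrolases, proteins of the lysosomal membrane, and subunits of the V-ATPase, the pump that acidifies the organelle. They were chosen by a list of names, with no threshold on their values but with earlier results of these data known. The 40 genes were 18 soluble hydrolases, the soluble cofactors Npc2 and Psap, 7 membrane proteins, 10 V-ATPase genes and 3 regulators (Rab7a, Rab7b and Tfeb). Of the 40, 37 had at least 1 probe set assigned to that gene alone, among 14217 named genes on the array. Sgsh, Npc1 and Atp6v0d2 were not analysed here, as the annotation used assigned no probe set to them alone. The 37 genes were read by 54 probe sets, and 15 of them by more than 1.

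The series comprised lung RNA of 6 Lewis rats, an inbred strain with no engineered allele named in the labels, on 1 array per animal. The silica group was 3 rats that inhaled an aerosol of silica dust (Min-U-Sil 5, 6.2 mg/m3) during 6 weeks, on 5 days of each week and for 6 hours on each of those days. The 3 control rats breathed filtered air in a similar inhalation set-up. The labels used here give no sex, no age and no interval from the last exposure to sampling. The series is titled for fibrogenic, redox-related and proinflammatory genes in this rat model of chronic silicosis, and lysosomal genes are not named in it. Each animal contributed a homogenate of lung tissue, so a signal is a sum over all cell types, and a change in the number of cells of a type cannot be told apart from a change in RNA per cell. Surfactant and alveolar markers of lung were bright in all 6 arrays. For example, Sftpc ran from 19546 to 24855 and Ager from 12872 to 16236.

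Lysosomes receive material from phagocytosis, endocytosis and autophagy and break it down with hydrolases that work at acid pH. The V-ATPase keeps the lumen acid: its cytosolic V1 sector splits ATP and its membrane V0 sector passes protons. Many lysosomal genes carry an E-box-like element called CLEAR near their start, which is bound by Tfeb and its relatives Tfe3, Tfec and Mitf. In lung, alveolar macrophages are rich in lysosomes and take up inhaled particles, and alveolar type 2 cells store surfactant in lysosome-related lamellar bodies.

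The start-site sequences of a few members are shown first, because the presence of this element can be set beside the change of each gene. RefSeq promoter windows of GRCr8, from 250 bases before to 50 after the start, were found for 32 of the 40 genes (33 windows, since Acp5 had 2). The E-box core CACGTG, searched on both strands, lay in the windows of 7 genes, that is in 21.2% of the 33 windows against 6.42% of all 33469 windows and 8.65% of the windows of genes with a probe set. The longer TCACGTGA, the inner part of the CLEAR element, which contains the core, lay in the windows of 4 genes (Lamp1, Cln3, Mcoln1 and Atp6v0d1), or 12.1% against 0.777% of all windows and 1.39% of the windows of genes with a probe set. Capitals mark these motifs in the runs below, each written 5′ to 3′ on the strand of its gene and lying wholly before the start. The Rab7b run is shown beside them because Rab7b had the largest change of the members and neither motif in its window.

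Lamp1: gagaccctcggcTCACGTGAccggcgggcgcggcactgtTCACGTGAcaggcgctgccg
Cln3: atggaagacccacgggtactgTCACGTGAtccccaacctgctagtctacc
Atp6v0d1: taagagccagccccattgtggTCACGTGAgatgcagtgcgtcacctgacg
Mcoln1: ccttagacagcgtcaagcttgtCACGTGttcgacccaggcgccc
Glb1: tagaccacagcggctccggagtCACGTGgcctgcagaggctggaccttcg
Gaa: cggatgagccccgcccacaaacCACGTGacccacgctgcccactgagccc
Rab7b: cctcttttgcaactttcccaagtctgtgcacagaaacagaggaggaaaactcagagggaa

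The Lamp1 run holds 2 TCACGTGA matches and lies at chr16:83075083-83075141, minus strand. The Cln3 run lies at chr1:190597940-190597989, minus strand, and that of Atp6v0d1 at chr19:50357273-50357322, minus strand. The Mcoln1 run, which holds the core alone, lies at chr12:6358214-6358257, plus strand. The TCACGTGA of this gene lies after the start, with its CACGTG core beginning at base 5, and is not printed. The Glb1 and Gaa runs, with the core alone, lie at chr8:122963596-122963645, plus strand, and chr10:105028266-105028315, plus strand. The Rab7b run is chr13:45673385-45673444, plus strand. The seventh gene with the core was Sgsh, which had no probe set. A match describes letters in a window and not a bound site, and no match says only that the letters are not in that window.

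Most of the lysosomal genes had a small positive difference between silica and control lungs, and few passed the test. Reading each gene by its brightest probe set, 35 of 37 had a log2 fold change above 0 (silica minus control, on log2(signal + 16)), against 53.7% of all 14217 named genes. The median was 0.19, against 0.02 over all named genes. In 21 of the 37 genes all 3 silica arrays lay above all 3 control arrays, and in 1 (Aga) all lay below. In the other 15 the groups overlapped. The background for these counts was 18.7% of named genes above and 12.7% below. Of the 33 members among the brighter 50% of named genes, 20 lay above and 1 below, against 22.1% and 17.9% of genes in that brighter set. In silica replicates 1, 2 and 3, 33, 32 and 34 of the 37 genes lay above the control mean, against 55.0%, 52.4% and 53.4% of all named genes. In control replicates 1, 2 and 3 the counts were 16, 23 and 14 of 37, against 52.4%, 51.7% and 46.2%.

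Only 3 of the 37 passed the test (limma, adjusted p under 0.05 over all 31042 probe sets), each higher in silica: Rab7b, Acp5 and Atp6v1b2. Among all named genes 1.55% were called higher and 0.120% lower. None of the 37 was called lower, and at an unadjusted limma p under 0.05 the members gave 14 higher and 1 lower, against 12.6% and 7.24% of named genes. With any 1 array left out, whichever of the 6, 0 of the 37 passed by limma, while between 12 and 15 were higher at an unadjusted p under 0.05, against 9.86% to 11.5% of named genes. In those 6 fits between 0 and 12 of all 31042 probe sets passed, against 290 higher and 45 lower with all arrays. Without control replicate 3 together with silica replicate 1, the arrays with the lowest and highest 3-prime to 5-prime RNA ratio, 33 of 37 had a log2 fold change above 0 and 9 were higher at an unadjusted limma p under 0.05, against 51.4% and 8.32% of named genes. Both remaining silica arrays lay above both control arrays in 24 of 37 genes and below in 1, against 27.4% and 23.0% of named genes.

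RNA quality moved with the groups. The mean log2 ratio of 3-prime to 5-prime signal for beta-actin and GAPDH ran from 1.00 to 1.23 in the control arrays and from 1.15 to 1.67 in the silica arrays, with only silica replicate 3 inside the control range. With this ratio as a covariate, 33 of 37 genes had a log2 fold change above 0 and 7 were higher at an unadjusted limma p under 0.05, against 51.9% and 7.56% of named genes. After adjustment 0 of the 37, and 0 of all 31042 probe sets, passed. The median of all members was 0.20 in that fit, against 0.19 without it, and that of the membrane proteins 0.11 against 0.18.

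**Figure D1:**
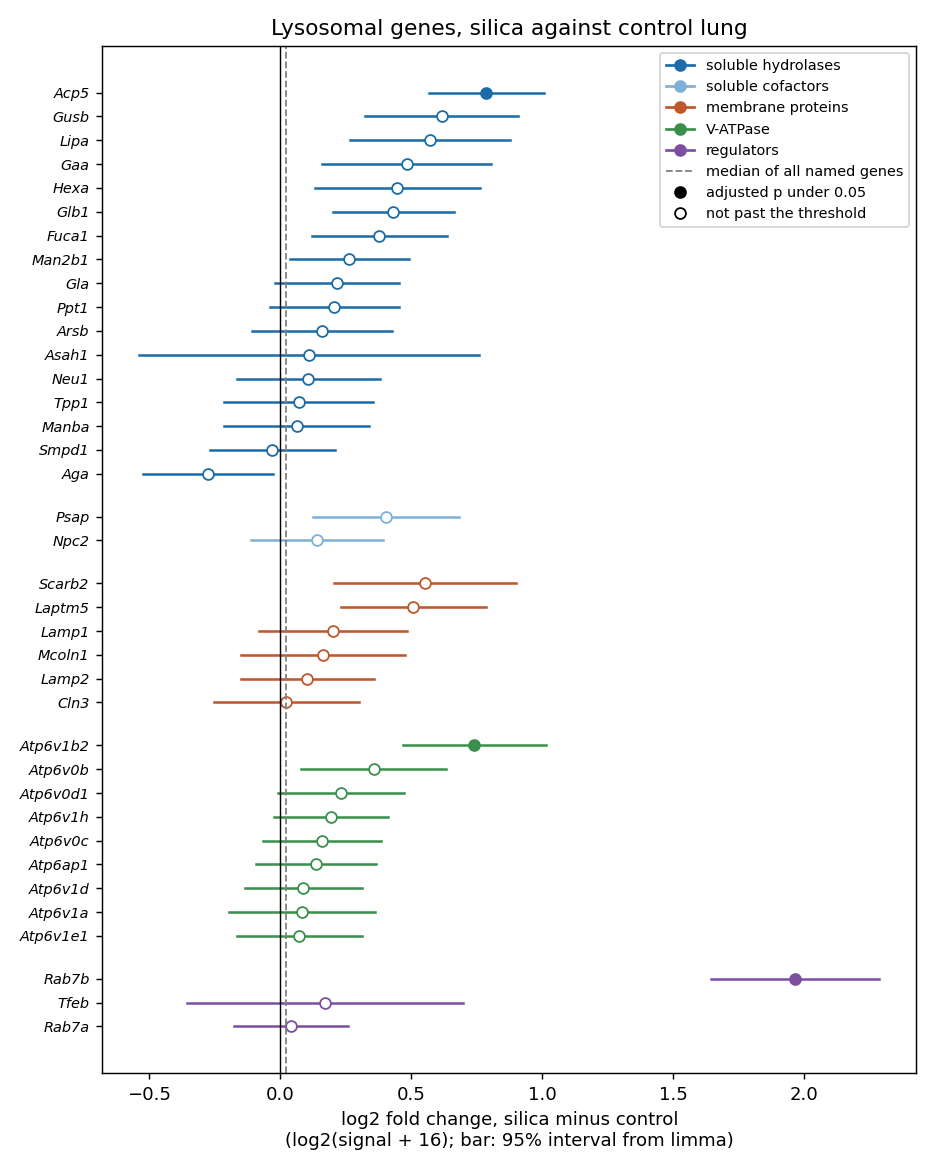
Log2 fold change (silica minus control) of the 37 measured genes by their brightest probe set, grouped by role, with 95% intervals from limma as bars; filled points have an adjusted p under 0.05 and the dashed line is the median of all named genes (0.02). Rab7b stands at 1.96, Acp5 at 0.79 and Atp6v1b2 at 0.74, and Smpd1 and Aga are the genes with a point below 0.

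Among the soluble hydrolases, 15 of 17 had a log2 fold change above 0, against 53.7% of named genes, with a median of 0.22. By limma 1 passed, against 1.55% of named genes called higher. All 3 silica arrays lay above all control arrays in 10 of the 17, against 18.7% of named genes. Acp5, the tartrate-resistant acid phosphatase of macrophages and osteoclasts, had signals of 1062, 996 and 999 in the control arrays and 1808, 1762 and 1738 in the silica arrays. The groups lay far apart and each was tight, and Acp5 rose by 0.79 ± 0.09 on the log2 scale (SE, n = 3 per group; limma adjusted p = 0.0330). Without 1 array its log2 fold change stayed between 0.77 and 0.82, with limma adjusted p from 0.0914 (without silica replicate 2) to 0.127 (without control replicate 2). With the RNA quality covariate it was 0.75 (limma adjusted p = 0.222).

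The next hydrolases by p did not pass. Gusb, beta-glucuronidase, which cleaves glucuronic acid from glycosaminoglycans, gave 746, 896 and 857 in control and 1185, 1403 and 1267 in silica (log2 fold change 0.62 ± 0.12, limma adjusted p = 0.0880). Lipa, the acid lipase that frees cholesterol and fatty acids from lipoprotein lipids, gave 1994, 2322 and 1844 in control and 3299, 2915 and 2941 in silica (0.57 ± 0.12, limma adjusted p = 0.106). Glb1, acid beta-galactosidase, gave 1006, 1029 and 978 in control and 1436, 1289.7 and 1358 in silica (0.43 ± 0.09, limma adjusted p = 0.106). In all 3 genes the lowest silica array exceeded the highest control array, and their 95% intervals stood above 0 (0.32 to 0.91, 0.27 to 0.88 and 0.20 to 0.66).

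Gaa, the acid alpha-glucosidase that degrades glycogen, Hexa, a subunit of beta-hexosaminidase, and Fuca1, alpha-fucosidase, had log2 fold changes of 0.48, 0.45 and 0.38, with silica arrays above control arrays in each and limma adjusted p of 0.160, 0.172 and 0.165. Man2b1, an alpha-mannosidase, Gla, alpha-galactosidase A, and Ppt1, a thioesterase that removes palmitate from proteins, were also separated between groups, with 0.26, 0.22 and 0.21. Arsb, a sulfatase, had 0.16, Asah1, acid ceramidase, 0.11, and Neu1, a sialidase, 0.11. Tpp1, a peptidase, had 0.07 and Manba, a beta-mannosidase, 0.06. The groups overlapped in these last 5 genes. Smpd1, the acid sphingomyelinase, lay close to 0 at -0.03 (95% interval -0.27 to 0.21).

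Aga, the amidase that cleaves the link between sugars and asparagine in glycoproteins, had lower signals after silica. Its signals were 2720.2, 2641 and 2847 in control and 2174, 2150.4 and 2462 in silica. Every silica array was below every control array, but the difference did not pass (-0.27 ± 0.10, limma adjusted p = 0.252). Asah1 varied most among the hydrolases, with control signals from 1168 to 2225, and its 95% interval ran from -0.54 to 0.76.

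The soluble cofactors differed in size. Psap, the precursor of the saposins that present sphingolipids to hydrolases, gave 8320.3, 8751 and 7909 in control and 10829, 12284 and 10045 in silica, without overlap (0.40 ± 0.11, limma adjusted p = 0.168). Npc2, which passes cholesterol to the membrane protein Npc1, gave 17677, 17428 and 16539.6 in control and 19440.2, 20184 and 17421 in silica (0.14 ± 0.10, limma adjusted p = 0.531). Its lowest silica array, replicate 3, lay inside the control range.

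Of 6 measured membrane proteins all had a positive log2 fold change, against 53.7% of named genes. None of them passed, and the median was 0.18. At an unadjusted limma p under 0.05, 2 were higher, against 12.6% of named genes. Laptm5, a lysosomal membrane protein of blood-derived cells, gave 3829.8, 4202 and 3401 in control and 5567, 5449 and 5203 in silica (0.51 ± 0.11, limma adjusted p = 0.112). Scarb2, the receptor that carries glucocerebrosidase to lysosomes, gave 450.4, 485 and 488 in control and 648, 853 and 628 in silica (0.55 ± 0.14, limma adjusted p = 0.147). For Laptm5 and Scarb2 the groups did not overlap, and silica replicate 2 was the highest Scarb2 array. Silica arrays lay above control arrays in 18.7% of named genes. A further Laptm5 probe set gave 0.53 and was also separated between groups.

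The structural glycoproteins of the lysosomal membrane had smaller differences. Lamp1 gave 10106, 10679 and 9391 in control and 12641, 11724 and 10428 in silica (0.20 ± 0.12, limma adjusted p = 0.425). Its silica replicate 3 lay below control replicate 2, so the groups overlapped. Lamp2 had 0.10 by its brightest probe set and 0.28 by a further one, the second without overlap. Mcoln1, a calcium channel of the lysosomal membrane, gave 512, 503 and 545 in control and 558, 684 and 523 in silica (0.16 ± 0.13, limma adjusted p = 0.563), with overlapping groups. Cln3, the membrane protein mutated in juvenile Batten disease, had 0.02, and its 2 further probe sets had -0.07 and -0.32, the second with each silica array below each control array.

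All 9 measured V-ATPase genes had a positive log2 fold change, against 53.7% of named genes, and the median was 0.16. By limma 1 passed, against 1.55% of named genes called higher. In 7 of the 9 all silica arrays lay above all control arrays, against 18.7% of named genes and 22.1% of the brighter 50%. Atp6v1b2, the B2 subunit at the ATP-binding ring of the V1 sector, gave 1397, 1571 and 1297 in control and 2408, 2482 and 2258 in silica. The groups were clearly apart, and Atp6v1b2 rose by 0.74 ± 0.11 (limma adjusted p = 0.0484). This call was marginal: the limma adjusted p was 0.0571 with arrays centred on their medians and 0.0841 with pseudocount 1. It ranged from 0.112 (without silica replicate 3) to 0.167 (without control replicate 1) with 1 array left out, and the log2 fold change was 0.65 with the RNA quality covariate (limma adjusted p = 0.297). A further Atp6v1b2 probe set gave 1209.7, 1415 and 1364 in control and 1548, 1876 and 1971 in silica, with a smaller log2 fold change of 0.43 (limma adjusted p = 0.191).

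The other 4 measured V1 subunits had smaller differences, and the 5 V1 genes had a median of 0.09. Atp6v1h, the regulatory H subunit, gave 1538, 1464 and 1456 in control and 1682, 1697 and 1727 in silica, without overlap (0.19 ± 0.09, limma adjusted p = 0.330). Atp6v1d, a subunit of the central stalk, had 0.09, the catalytic Atp6v1a 0.08 and the peripheral stalk subunit Atp6v1e1 0.07. The 3 measured V0 genes ran from 0.16 to 0.36 with a median of 0.23. Atp6v0b, a proteolipid of the proton-carrying ring, gave 2134, 2449 and 2024 in control and 2993, 2724 and 2743 in silica (0.36 ± 0.11, limma adjusted p = 0.199), and a further probe set gave 0.43. Atp6v0d1, the widely expressed d subunit that couples the ring to the stalk, gave 3518, 3693 and 3459 in control and 3974, 4498 and 4077 in silica (0.23 ± 0.10, limma adjusted p = 0.303). The ring subunit Atp6v0c had 0.16 and the accessory subunit Atp6ap1 0.14. In these 4 genes the silica and control arrays did not overlap, though none passed. Silica arrays lay above control arrays in 18.7% of named genes and in 22.1% of the brighter 50%.

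Hydrolases, membrane proteins and pump subunits had medians of 0.22, 0.18 and 0.16, over genes that ran from -0.27 to 0.79, 0.02 to 0.55 and 0.07 to 0.74. The difference between the classes was not tested. The level of a class in 1 array is the median, over its genes, of the log2 value minus the gene's control mean. By this measure the silica arrays gave 0.29, 0.30 and 0.23 for hydrolases. The control arrays gave -0.04, 0.03 and -0.01 for that class. For pump subunits the silica arrays gave 0.14, 0.19 and 0.20 and the control arrays at most 0.05. For membrane proteins they gave 0.22, 0.30 and 0.08, and the highest control array 0.06, so silica replicate 3 lay near the controls in this class.

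**Figure D2:**
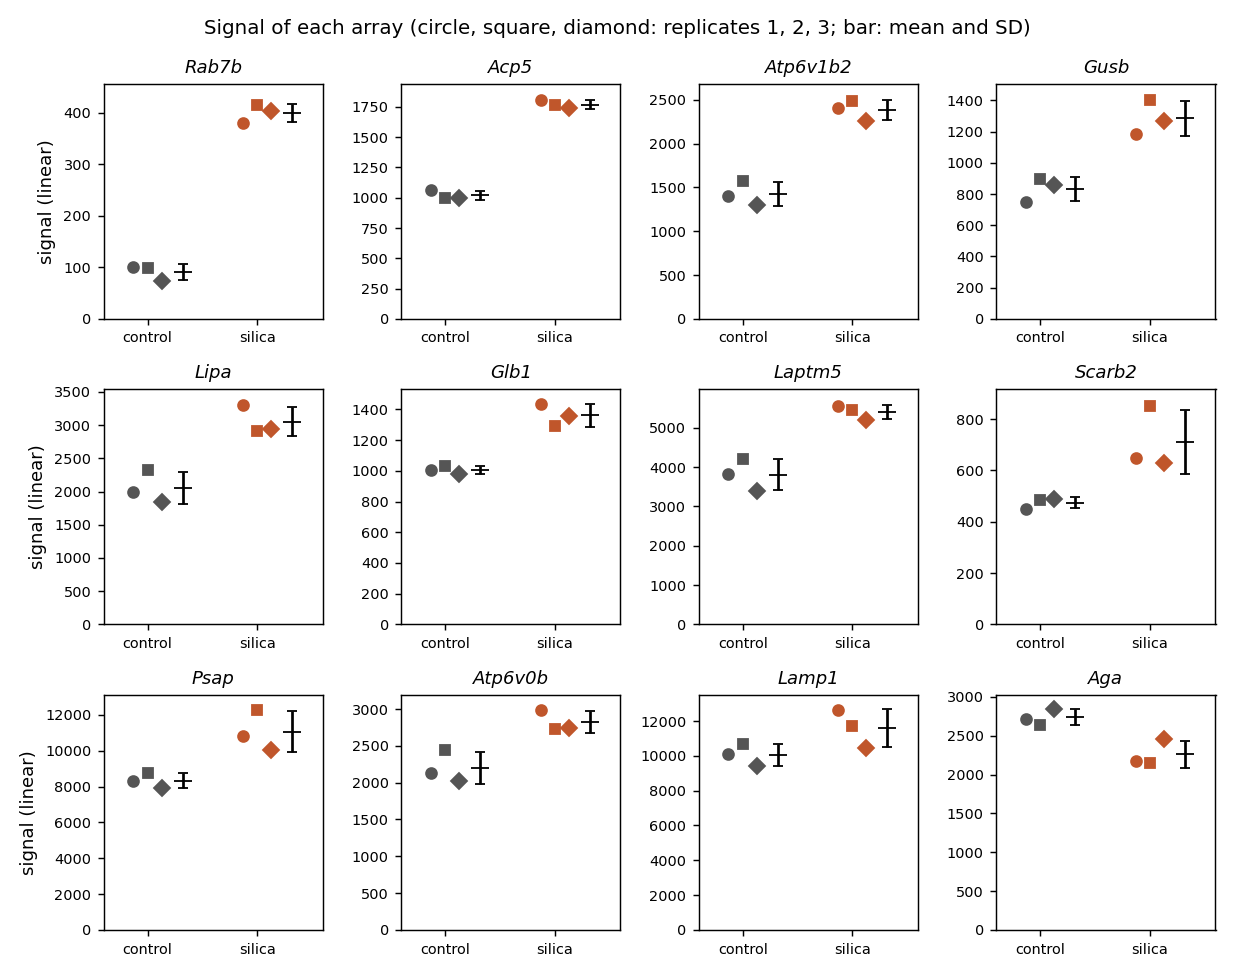
Linear signal of each array for 12 members by their brightest probe set, with control arrays in grey and silica arrays in orange; bars give the mean and SD of 3 animals. Rab7b, Acp5 and Atp6v1b2 have the largest folds, the Lamp1 groups overlap, and Aga is lower in each silica array.

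Of the regulators, Rab7b had the largest change of all members. Rab7b encodes a small GTPase of late endosomes and lysosomes, related to Rab7a, that acts in transport between endosomes and the Golgi and is found in monocytes and dendritic cells. Its signals were 99.7, 99.2 and 74.0 in control and 379, 415 and 403 in silica. The highest control array thus lay well under the lowest silica array, and Rab7b rose by 1.96 ± 0.13 on the log2 scale (3.90-fold; limma adjusted p = 0.0127). As the control signals were dim, the size depended on the pseudocount, with a log2 fold change of 1.58 at pseudocount 64 and 2.13 at pseudocount 1. Both fits passed.

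A further Rab7b probe set gave 45.8, 52.8 and 14.7 in control and 96.5, 84.9 and 106 in silica. It pointed the same way without passing (1.14 ± 0.31, limma adjusted p = 0.161). With 1 array left out, Rab7b stayed between 1.84 and 2.03, and the limma adjusted p ran from 0.0597 (without silica replicate 2) to 0.0849 (without control replicate 1). With the RNA quality covariate it was 1.90 (limma adjusted p = 0.156).

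Rab7a, the widely expressed GTPase that drives fusion of late endosomes with lysosomes, had a log2 fold change of 0.04 ± 0.09 (95% interval -0.18 to 0.26), and a further probe set -0.19. Tfeb, the transcription factor named for control of lysosomal genes, gave 421, 401 and 284 in control and 503, 324 and 425 in silica. The Tfeb groups overlapped widely (0.17 ± 0.22, limma adjusted p = 0.728), and its direction turned without control replicate 3 (-0.0003).

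**Figure D3:**
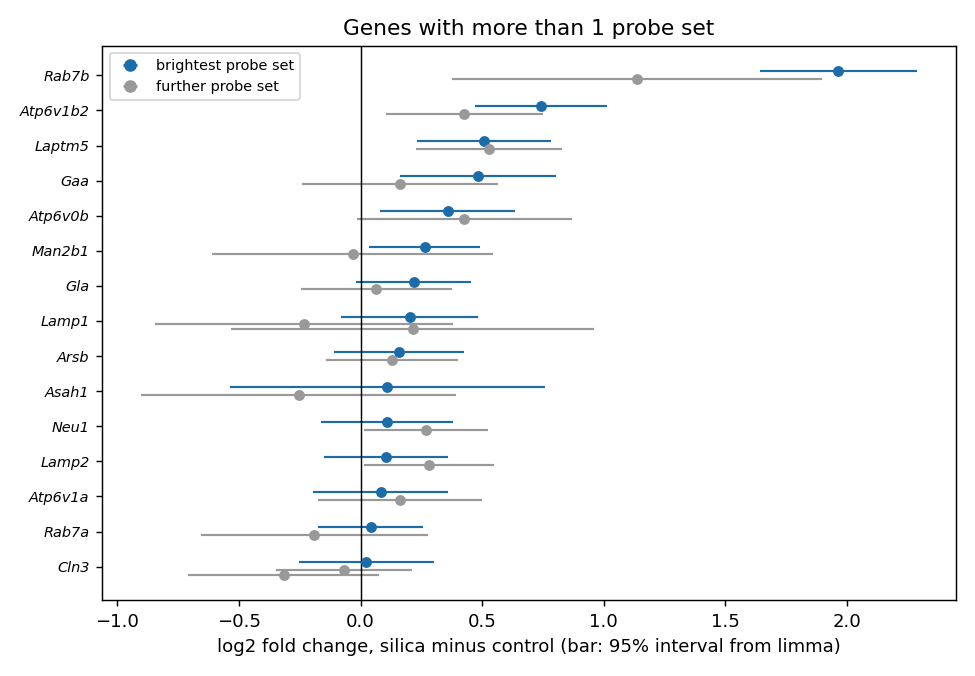
Log2 fold change with 95% limma intervals for the 15 genes with more than 1 probe set, the brightest in blue and further ones in grey. Both probe sets of Rab7b, Atp6v1b2, Laptm5 and Atp6v0b lie above 0, while Man2b1, Lamp1, Asah1, Rab7a and Cln3 have a further probe set of opposite sign.

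Probe sets of 1 gene did not always have the same sign. Of 17 further probe sets on 15 genes, 6 had the opposite sign to the brightest one, on 5 genes, and none passed. Man2b1 had -0.03 and Asah1 -0.25 by the further probe set. One further Lamp1 probe set had -0.23 and the other 0.21, both dim, with signals at or under 62.7. For Gaa, Gla, Arsb, Neu1 and Atp6v1a the further probe sets had 0.16, 0.07, 0.13, 0.27 and 0.16, of the same sign as the brightest.

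The motif matches can be set beside the changes. The 6 measured genes with the E-box core in their window had a median log2 fold change of 0.22 (0.02 to 0.48) and none passed. The 24 measured genes whose windows held no core had a median of 0.15 (-0.27 to 1.96), and Rab7b and Acp5 passed. Atp6v1b2 had no window. These are descriptions of few genes with no test. Among the factors that bind the element, relatives of Tfeb had larger differences than Tfeb itself. Tfec gave 322, 409.9 and 289 in control and 579, 690.1 and 561 in silica (0.82 ± 0.16, limma adjusted p = 0.0878). Tfe3 gave 705, 748 and 726 in control and 1018, 1112 and 971 in silica (0.50 ± 0.10, limma adjusted p = 0.0907). Mitf had 0.29 (limma adjusted p = 0.217) by its brightest probe set and 0.53 by a further one. In these probe sets all silica arrays lay above the control arrays, as in 18.7% of named genes. None of them passed, and the difference from Tfeb was not tested. A dim further Tfec probe set gave 0.39, and 2 dim ones of Tfe3 gave 0.12 and -0.37, each with overlapping groups.

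Other genes of the organelle were read from 4 further lists. Among all named genes 1.55% were called higher and 0.120% lower by limma. Of 18 measured further hydrolases, activators and enzymes of their maturation, 2 rose and none fell, with a median of 0.34. They were Smpdl3a, a phosphodiesterase related to acid sphingomyelinase, with 1788, 1990.2 and 1794 in control and 3347, 3458 and 3229 in silica (0.84 ± 0.10, limma adjusted p = 0.0330), and Gm2a, the GM2 ganglioside activator that works with Hexa, with 2369, 2543 and 2325 in control and 3936, 4117 and 3699.6 in silica (0.70 ± 0.10, limma adjusted p = 0.0458). The groups did not overlap for either gene. Of 18 measured further membrane proteins, 1 rose and none fell, with a median of 0.19. It was Cd68, a glycoprotein of macrophage lysosomes, with 2717, 2906 and 2669 in control and 4685, 5857 and 4870.4 in silica (0.88 ± 0.12, limma adjusted p = 0.0431).

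None of 16 further V-ATPase genes passed by limma, and the median was 0.04. At an unadjusted limma p under 0.05, 2 were higher, against 12.6% of named genes. In 9 of the 16 the log2 fold change was above 0, against 53.7% of named genes. All silica arrays lay above all control arrays in 4 of the 16, against 18.7% of named genes. The smallest p belonged to Atp6v0a1, a membrane-spanning a subunit, at 0.66 ± 0.22 (limma adjusted p = 0.211), and to Atp6v1g3, a kidney-type G subunit that was dim here, with signals at or under 52.6, at 0.84 ± 0.31. The Atp6v1g3 groups overlapped, and a further dim probe set of that gene gave -0.15. Of 27 genes of lysosome regulation and delivery none passed, and the median was 0.09. At an unadjusted limma p under 0.05, 6 were higher and 2 lower, against 12.6% and 7.24% of named genes. The smallest p in that list belonged to Tfec and Tfe3, described above.

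Some markers of immune cells rose as well. Among all named genes 1.55% were called higher, and silica arrays lay above control arrays in 18.7% and below in 12.7%. Of 10 measured macrophage markers 3 rose (Cd68, Aif1 and Itgax), and the silica arrays lay above the control arrays in 5, with a median of 0.37. Their summed signal, which Lyz2 dominates, was 32819 to 33589.9 in control and 33528 to 41156 in silica. Lyz2 itself had -0.21 and Cd163, dim in all arrays, -0.45, and no marker of the list had a signal of 0. T and NK cell markers rose in 7 of 8 cases (Zap70, Cd247, Cd3d, Cd3e, Nkg7, Lck and Cd3g, with log2 fold changes from 0.87 to 1.27), with a summed signal of 3376 to 3618 in control and 6586 to 7695 in silica. Of 7 neutrophil markers 1 rose, Il1r2, from a mean signal of 58.5 in control to 204 in silica. Their summed signal was 5428 to 6986 in control and 9574 to 16354 in silica. That sum was mostly S100a9 (means 4399 and 8760, limma adjusted p = 0.134) and S100a8 (1391 and 2282, limma adjusted p = 0.299), which did not pass. For Camp, Csf3r, Cxcr2 and Mmp8 the groups overlapped. Of 6 mast cell markers 3 rose, Mcpt1, Fcer1a and Mcpt10 (summed signal 971 to 1272 against 1939.7 to 2729.9). Kit, of the mast cell list, had -0.63 with each silica array below each control array, without passing (limma adjusted p = 0.239).

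Acp5 is also a marker of osteoclasts and of multinucleated giant cells. Of 5 measured genes of that list 1 rose, Ctsk, from 151 ± 12.5 to 431 ± 61.3 (SD, n = 3), and 3 were higher at an unadjusted limma p under 0.05, each with silica arrays above control arrays. The other two were Tnfrsf11a, at 0.68 (limma adjusted p = 0.0694), and Nfatc1, at 0.29 (limma adjusted p = 0.214). Itgb3 had 0.07, and Calcr was near the floor of the array, with signals of at most 41.8, so no difference is read from it. The summed signal was 2083 to 2201 in control and 2607 to 2716 in silica. Among 4 B and plasma cell markers none passed by limma, with 2 at an unadjusted p under 0.05, Jchain (0.80) and Cd22 (0.41). Their summed signal, which Jchain dominates, was 2526 to 3342 in control and 3615 to 5296 in silica. Cd79b and Ms4a1 had 0.07 each, with overlapping groups. Of 8 alveolar type 2 markers, cells with lamellar bodies, none passed by limma, 0 had an unadjusted p under 0.05, and the summed signal was 125529 to 130553 against 116535 to 136356. All 5 alveolar type 1 markers had silica arrays below control arrays and none passed by limma, 3 at an unadjusted p under 0.05 (summed signal 68082 to 71847 against 57219 to 61560.0). Endothelial markers gave 0 calls of 4 by limma and 1 at an unadjusted p under 0.05, Kdr (-0.33). Their summed signal, of which Kdr was the largest part, was 15243 to 15613 in control and 12849.7 to 13903 in silica. For Pecam1, Tie1 and Vwf the groups overlapped. The 3 airway markers gave 0 calls by limma, none at an unadjusted p under 0.05 (26024 to 29406 against 23712 to 30440.2). Over all named genes 1.55% were called higher and 0.120% lower. At an unadjusted limma p under 0.05, 12.6% were higher and 7.24% lower. Silica arrays lay above control arrays in 18.7% of named genes and below in 12.7%. The part of the cell types above in the differences of lysosomal genes was not tested.

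**Figure D4:**
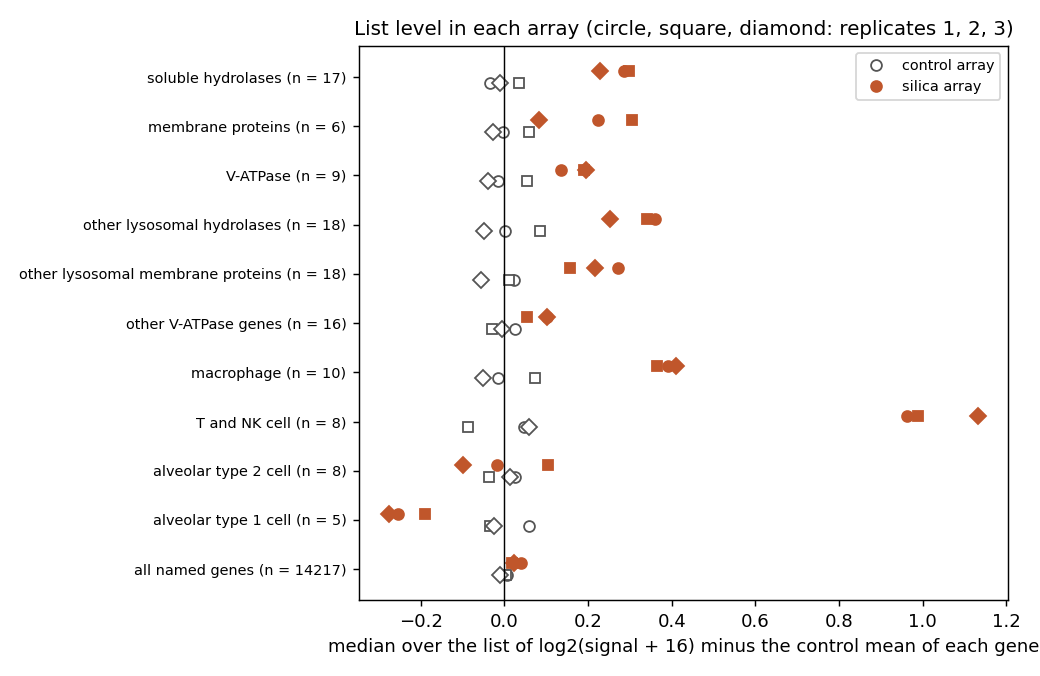
Median over each gene list of log2(signal + 16) minus the control mean of each gene, 1 point per array, with open symbols for control and filled ones for silica. Silica arrays sit at 0.23 to 0.30 for hydrolases and 0.14 to 0.20 for V-ATPase genes, against 0.36 to 0.41 for macrophage markers and 0.96 to 1.13 for T and NK cell markers, and near 0 for all named genes.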

How the data were processed

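RNA from 6 lungs, 3 control and 3 silica, was labelled with biotin by in vitro transcription and measured on 1-colour short-oligonucleotide arrays, per the labels' protocols. The authors deposited 1 linear signal intensity for each probe set on each array. The software behind it is not stated in the labels used here. The 2% trimmed mean of each array lay at 500.1, so 1 factor per array was applied before deposit. Array medians ranged from 7.38 to 7.42 in log2, and precision is limited by having 3 arrays a group.

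Of 31099 probe sets, 57 array controls were left out. Gene names came from the platform annotation, with symbols updated by gene identifier through RefSeq (GRCr8): 20758 of 20826 probe sets with 1 gene matched. No filter on low values was applied, so all 37 measured members were tested. Values were analysed as log2(signal + 16), with limma 3.58.1 (lmFit, eBayes) in R 4.3.3, group as the only term (4 residual degrees of freedom, 2.18 prior), and p adjusted by Benjamini-Hochberg over 31042 probe sets. Exact permutation of 3 against 3 arrays gives no p below 0.1. A gene was read by its brightest probe set. A fold on this scale understates changes of dim genes.

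The members and lists were chosen with earlier results of these data known, so list counts and medians are given beside those of all named genes with no test. Each member was named. Array values were given for members that passed and for the 4 of smallest p among each of hydrolases, membrane proteins, V-ATPase genes and remaining members, with Aga added after its values were seen. From the 4 further lysosomal lists, genes that passed or otherwise the 2 with the smallest p were named. Mitf and the marker genes, which that rule does not cover, were named after their values were seen. Cd68 and Lamp3 stand in 2 lists. Alternatives were quantile normalization, median centring, leaving out the dimmer 50%, an intensity trend with robust spread, pseudocounts 1 and 64, a replicate block, the mean of all probe sets, an RNA quality covariate, and leaving out arrays.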

Additional observations from a re-analysis of the deposited data

How the results depend on the processing

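The number of members that passed depended on the setting. It was 3 by the fit reported, 12 with the dimmer 50% left out (Rab7b among them, which passed this filter only through its silica arrays), 13 with an intensity trend and robust spread, 7 with pseudocount 64, 6 with the mean of all probe sets and 1 (Rab7b) with pseudocount 1. It was 0 with the RNA quality covariate and 0 without control replicate 3 together with silica replicate 1, and with each array left out in turn it was between 0 and 0. No setting called a member lower. The replicate numbers were tried as a block, and 0 members passed with the replicate block, while 13 were higher at an unadjusted limma p under 0.05, against 11.2% of named genes. Deviations of same-numbered arrays correlated at 0.09, 0.04 and 0.09, each the highest for its number, which is a hint from the data and no evidence of pairing. Over all 31042 probe sets 290 were higher and 45 lower in the fit reported, 1044 and 631 of 15521 with the dimmer 50% left out, 1141 and 721 with trend and robust spread, 707 and 212 with pseudocount 64, 39 and 4 with pseudocount 1, 1 and 0 with the block, 0 and 0 with the covariate, and 447 and 113 of 14217 genes with the mean of all probe sets. The hydrolase median of 0.22 moved by more than the SD between silica arrays without control replicate 3 together with silica replicate 1 (0.26), and ran from 0.22 to 0.27 with 1 array left out. Medians of membrane proteins, V-ATPase genes and all members moved by less than their own SD. Of 592 member values under the 16 alternatives 14 changed sign, on 6 genes, all with log2 fold changes under 0.2: Tpp1 (-0.0267) and Tfeb (-0.0170) with the RNA quality covariate, Cln3 (-0.0274) and Tfeb (-0.141) without both named arrays, and Asah1 (-0.0718), Cln3 (-0.120) and Rab7a (-0.0747) with the mean of all probe sets. With 1 array left out, Asah1 ran from -0.0906 to 0.370, Smpd1 from -0.0762 to 0.0046, Tpp1 from -0.0107 to 0.140, Cln3 from -0.0405 to 0.0985 and Tfeb from -0.0003 to 0.335. The cause was not tested. The signal of dim probe sets such as Rab7b in control limits the size of its fold.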
